A study of Mus musculus with 4 samples.

Results

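The translation initiation and elongation factors of the cytosol were followed in naive CD4 T cells of mice with and without the genes Btg1 and Btg2. Members were the protein-coding genes of GENCODE mouse release M21 whose symbol begins with Eif1 to Eif6, Eef1 or Eef2, leaving out the Eif2ak kinases and the Eif4ebp repressors. This gave 61 of 22028 annotated protein-coding genes. A further 10 processed pseudogenes and 1 long non-coding RNA gene had matching symbols and were left out. The members were placed in 7 factor groups by their role. Following the rule by which they were collected, they were also divided into 17 genes treated as 5′ TOP mRNAs (Eef1a1, Eef2, Eif4b and the 14 Eif3 genes) and 44 others. A 5′ TOP mRNA is one that begins with a cytosine and a run of pyrimidines at its 5′ end.

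RNA from sorted cells that were TCRb+ and CD4+, lacked CD25 and had high CD62L and low CD44 was depleted of ribosomal RNA and sequenced. The 2 wild-type (WT) libraries came from littermate controls of genotype Btg1f/f Btg2f/f, which carry floxed alleles of both genes and no recombinase. The 2 double-knockout (DKO) libraries came from Btg1f/f Btg2f/f-CD4-Cre mice, in which Cre under Cd4 control removes both genes in the T cell lineage, so deletion starts in the thymus and not in the resting cell. No stimulus was labelled. The labels do not give the age or number of animals behind each library. The p-values measure the spread between these libraries, estimated with information shared across genes.

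Initiation factors load the small ribosomal subunit with the initiator tRNA (eIF1, eIF1A, eIF2, eIF5, eIF5B), bind and unwind the capped mRNA (eIF4) and hold the complex together (eIF3), and eIF2B recharges eIF2 with GTP. Elongation factors then bring aminoacyl-tRNA to the ribosome (eEF1A, recharged by eEF1B) and move it along the mRNA (eEF2). Naive T cells are known to keep protein synthesis low until the antigen receptor is engaged. BTG1 and BTG2 are anti-proliferative proteins that bind the CCR4-NOT deadenylase, which shortens poly(A) tails.

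Total estimated counts were 13889894 to 17827631 per library, and 12863 genes passed the filter on low counts. Levels below are CPM, estimated counts relative to library size after scaling by the trimmed mean of M-values (TMM), and fold changes are log2, DKO minus WT, with the standard error (SE) of the fit. Btg1 stood at 532 and 472 CPM in WT and at 6.11 and 5.80 CPM in DKO, and Btg2 at 93.4 and 92.5 against 0.296 and 0.325 CPM, so both targets were near 0 in the libraries labelled DKO. All 9 markers of naive CD4 T cells were present at 92.9 to 1201 CPM. Ncr1 of NK cells was at 0 in every library, and no B cell, NK or erythroid marker passed 1.30 CPM. Cd8a of CD8 T cells was at 0.433 CPM or lower, while Cd8b1 was at 6.79 and 7.47 CPM in WT and 8.57 and 13.0 CPM in DKO. The 4 myeloid markers summed to 4.83 and 3.55 CPM in WT and 2.50 and 4.70 CPM in DKO. The summed level of 5 regulatory T cell markers was 12.9 and 13.2 CPM in WT against 28.2 and 45.1 CPM in DKO. Ctla4, one of the 5, did not share this difference and overlapped between the groups. The share of counts on nuclear protein-coding genes, leaving out Lars2, also differed, at 30.7% and 30.4% in WT and 35.4% and 40.4% in DKO. The part of these differences in the results below was not tested. In bulk RNA, fewer cells of a type and less RNA per cell cannot be told apart.

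No translation factor passed the test for a difference between DKO and WT. Of the 58 members tested, 0 were called higher and 0 were called lower by the quasi-likelihood test of edgeR, with p adjusted over all genes by the Benjamini-Hochberg method, where 0.0544% of all genes tested were called higher and 0.07% lower. The smallest adjusted p among members was 0.161, for Eif4a2. At an unadjusted p under 0.05 there were 6 members lower (Eif4a2, Eef1g, Eef1d, Eif1, Eif3m and Eif3h) and 0 higher, against 4.35% and 3.82% of all genes and 2.66% and 4.39% of protein-coding genes. Single libraries moved this count, and so did the scaling, as given below. Without WT 2 there were 2 lower and 4 higher (all genes 6.11% and 7.65%), and without WT 1 there were 14 and 1 (6.4% and 5.37%). Without DKO 1 there were 3 and 0 (2.84% and 1.94%), and without DKO 2 there were 1 and 0 (2.14% and 1.76%). DESeq2 called 1 member lower, Eif4a2, and 1.03% of all genes lower. The members not tested were Eef1a2, Eef1akmt3 and Eif4e1b, all under 0.35 CPM in every library.

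By their median the members lay close to the middle of all genes, while their summed share of counts was lower in both DKO libraries. The members made up 2.68% and 3.10% of counts on nuclear protein-coding genes, again leaving out Lars2, in WT and 2.55% and 2.23% in DKO. Their median log2 fold change was −0.06, beside −0.01 for all genes tested and 0.02 for protein-coding genes, and it was 0.06 without DKO 2. Of the 58, 35 lay below 0, against 51.9% of all genes tested and 47.3% of protein-coding genes. Both DKO libraries lay below both WT libraries for 16 of the 58 and above them for 7, against 18.8% and 19.9% of all genes tested, and 16.4% and 22.3% of protein-coding genes. The factor groups differed in where they lay. The 6 tested elongation factors had a median of −0.45 and all 6 lay below 0, while eIF3 had −0.10, eIF4 −0.06, the start codon and ternary complex group 0.00, eIF2B 0.09, eIF5A with eIF6 0.17 and the enzymes that modify elongation factors 0.21. The elongation median was −0.18 without WT 2 and −0.24 without DKO 2, and the eIF3 median was 0.04 without DKO 2. Differences between these groups were not tested.

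**Figure D1:**
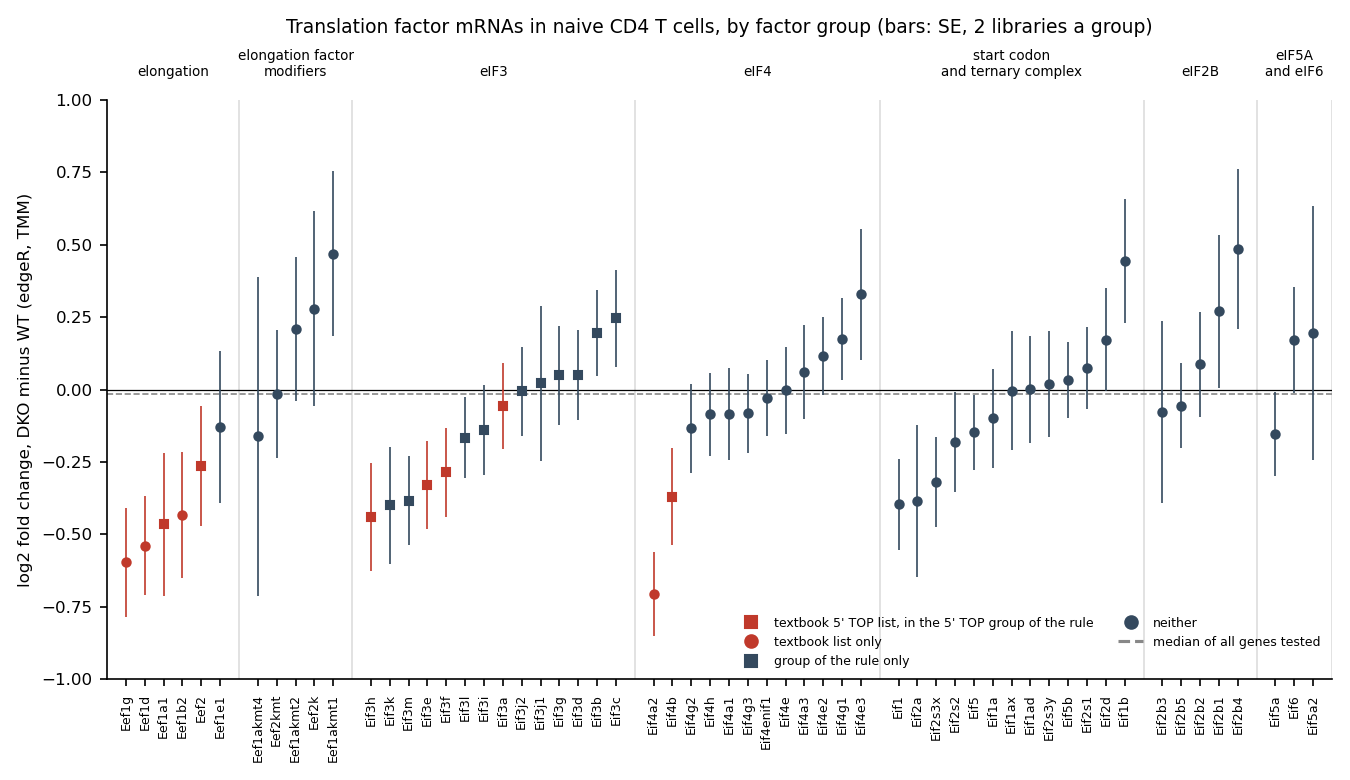
Log2 fold change (DKO minus WT, TMM scaling) of the 58 tested translation factor genes by factor group. Bars are the SE of the fit, with 2 libraries a group. Red marks genes of the textbook 5′ TOP list and squares the 5′ TOP group of the rule. The elongation factors all lie below 0, and the other groups lie on both sides of it.

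Scaling sets the zero of these values. Under TMM the median gene lay at −0.01, with total counts alone at 0.33, and with 5 RNA polymerase III transcripts as the reference at 0.90. With that reference all 58 members lay above 0, and Eif2b4 and Eif3c were called higher, as were 3.67% of all genes. At an unadjusted p under 0.05, 0 members were lower and 12 higher with total counts, and 0 and 32 with the polymerase III reference. The shares of all genes at this threshold were not computed for these scalings. Directions below are therefore against 0 under TMM, close to the median gene at −0.01, unless another reference is named. Within-library ratios, which no scaling between libraries touches, are given beside them.

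The elongation factor genes Eef1a1, Eef1b2 and Eef2 were the most abundant members. On the deposited TPM, a measure that accounts for transcript length, Eef1a1 averaged 189 TPM over the 4 libraries, followed by Eef1b2 at 60.9, Eef2 at 38.9, the eIF4G-like factor Eif4g2 at 27.7, Eif4a2 at 19.1, Eif1 at 17.8 and Eef1g at 14.5 TPM. Eef1a1 alone held 37.5% of all counts on members, averaged over libraries. It encodes eEF1A1, the GTPase that carries aminoacyl-tRNA to the ribosome, and the paralogue of muscle and neurons, Eef1a2, had 0 counts in 3 libraries and 0.139 CPM in DKO 2.

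Eef1a1 (chromosome 9, 78478449 to 78489151, minus strand, GRCm38) stood at 3331 and 4694 CPM in WT and at 3228 and 2584 CPM in DKO. The WT 2 library was high and DKO 2 low, while WT 1 and DKO 1 were close together without overlap of the groups. The log2 fold change was −0.47 (SE 0.25, adjusted p = 0.686 by edgeR's quasi-likelihood test). The eEF1B complex, built from 3 subunits, exchanges GDP for GTP on eEF1A, and its genes had the same 2 libraries at the extremes. Eef1g, the gamma subunit, was at 288 and 369.8 against 246 and 189.5 CPM (log2 fold change −0.60, SE 0.19, adjusted p = 0.414), and Eef1d, the delta subunit, at 66.8 and 86.9 against 58.0 and 47.8 CPM (−0.54, SE 0.17, adjusted p = 0.414). Eef1b2, a subunit with exchange activity, was at 429.9 and 589 against 438 and 317 CPM (−0.43, SE 0.22, adjusted p = 0.664). For Eef1g and Eef1d both DKO libraries lay below both WT libraries, and for Eef1b2 DKO 1 lay just above WT 1. The translocase gene Eef2 stood at 1219 and 1605 CPM in WT and 1263 and 1088 CPM in DKO (−0.26, SE 0.21, adjusted p = 0.812), with overlap of the groups. Single libraries set much of these values. Without WT 2 the log2 fold change was −0.18 for Eef1a1, −0.17 for Eef1b2, −0.32 for Eef1d, −0.39 for Eef1g and −0.04 for Eef2, and without WT 1 that of Eef1a1 was −0.69 and that of Eef2 −0.45. Eef1e1, a scaffold protein of the tRNA synthetase complex that carries an elongation factor name, was at 6.71 and 8.59 against 8.10 and 5.89 CPM.

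Within a library, the 4 eEF1 genes Eef1a1, Eef1b2, Eef1d and Eef1g made up 46.3% and 50.6% of the counts on members in WT and 44.9% and 42.1% among the DKO libraries. Their log2 ratio to the other members was −0.21 and 0.04 in WT against −0.30 and −0.46 in DKO. The difference was −0.29 with a pooled SD of 0.15 (n = 2 each). The groups did not overlap in this ratio. Leaving out WT 2 gave −0.17 and leaving out DKO 2 gave −0.21. The smallest p that an exact permutation test (two-sided) allows for 2 against 2 libraries is 0.333, so none is given for single values.

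**Figure D2:**
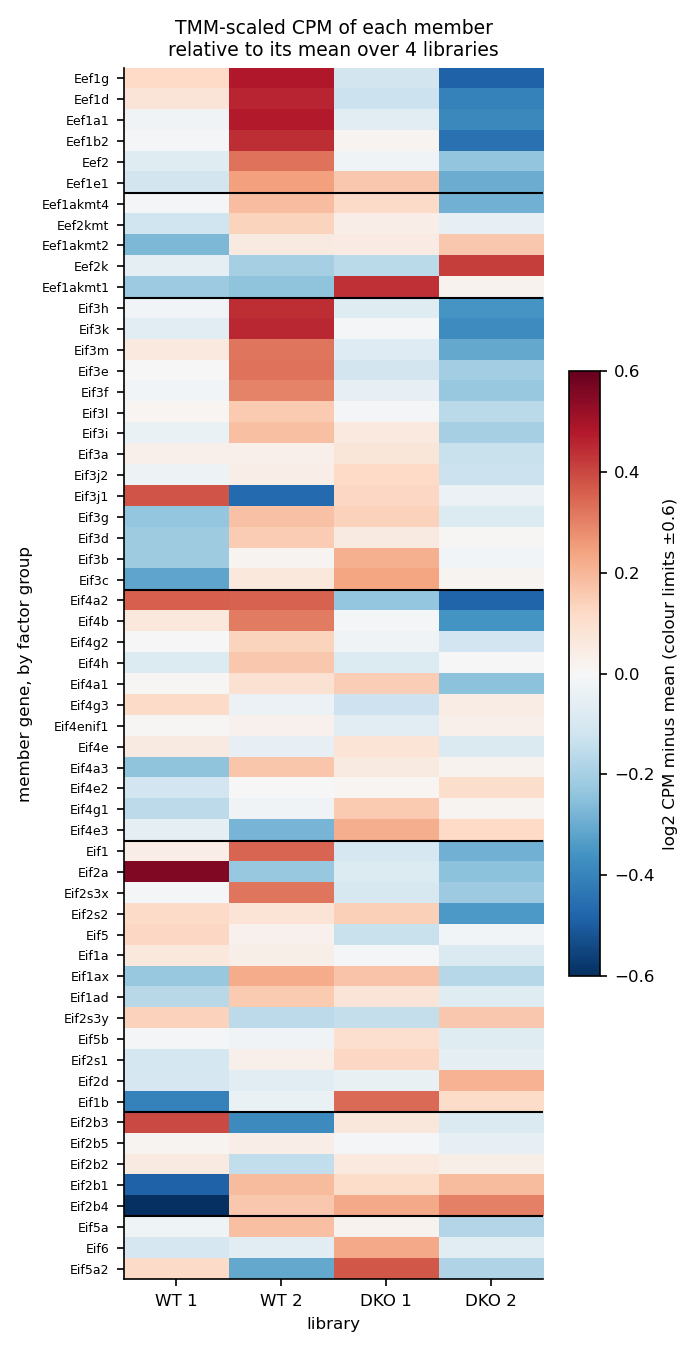
Log2 CPM of each tested member minus its mean over the 4 libraries, with members in order of factor group and fold change within it; colours saturate at ±0.6. Eef1g, Eef1d, Eef1a1 and Eef1b2 are highest in WT 2 and lowest in DKO 2, and Eif4a2 is high in both WT libraries.

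The enzymes that act on elongation factors were expressed at low levels. Eef2kmt, a methyltransferase for eEF2, stood at 7.34 and 8.75 CPM in WT and 8.20 and 7.70 CPM in DKO. Eef1akmt2, a lysine methyltransferase for eEF1A, was at 5.27 and 6.60 against 6.57 and 7.10 CPM. Eef1akmt1, of the same kind, was at 4.33 and 4.25 against 6.80 and 5.10 CPM (log2 fold change 0.47, SE 0.28, adjusted p = 0.727), the single one of the 5 tested whose DKO libraries both lay above the WT libraries.

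The 5′ TOP group of the rule lay on both sides of 0, with 12 of 17 genes below it. A shorter list of 11 members was taken from textbook knowledge of 5′ TOP mRNAs. It holds Eef1a1, Eef1b2, Eef1d, Eef1g, Eef2, Eif3a, Eif3e, Eif3f, Eif3h, Eif4a2 and Eif4b. Of these, Eef1b2, Eef1d, Eef1g and Eif4a2 are not in the group of the rule. They lay at −0.43, −0.54, −0.60 and −0.71, beside −0.06 (Eif3a) to −0.47 (Eef1a1) for the genes shared with the rule. The median log2 fold change was −0.17 for the 17 genes of the rule (−0.08 without WT 2 and −0.07 without DKO 2) and −0.02 for the 41 other tested members, and it was −0.43 for the 11 textbook genes and 0.00 for the 47 members not on that list. The 10 genes that the rule counts as 5′ TOP and the textbook list does not had a median of 0.01, and 5 of them lay below 0, Eif3k (−0.40) and Eif3m (−0.38) lowest. The difference between these lists was not tested. All 11 textbook genes lay below 0, against 51.9% of all genes, and 8 of the 11 had both DKO libraries below both WT libraries, against 18.8%. In the group of the rule 7 of 17 did so. These counts describe the lists, which were drawn up with earlier results known, and 0 of 11 and 0 of 17 were called.

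Another scaling moves all genes alike. With total counts 4 of the 11 textbook genes, and with the RNA polymerase III reference all 11, lay above 0. On either TPM scale 10 of the 11 lay below the median gene. Their median without WT 2 was −0.18 and without DKO 2 was −0.25, where 11 and 10 of them lay below 0. Summed without transcripts that hold a whole snoRNA gene, their median was −0.37, with all 11 below 0.

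To show what the annotation places at the start of these mRNAs, the first 30 bases of the most abundant protein-coding transcript of 5 members follow, 5′ to 3′, read from the GENCODE M21 transcripts on GRCm38. Capitals mark the longest run that starts with C and holds only C and T. Eif3f and Eif4a2 are textbook genes with such a run at the first base, Eif3k and Eif3c have a long run that begins a few bases in, and Eif3b is shown as a contrast.
Eif3f: CTCTTTCTCggcaagatggcttctccggcc
Eif4a2: CTTTTCagtcgggcgctgagtgggttttcg
Eif3k: acaCCTCTCTTCCggtcctctagtgctaag
Eif3c: aaCCTTTTCCTCTTCCggcgtcgtgcctgt
Eif3b: gcggCCgagccgggtgagaagcagcgcggg
The first bases lie at chr7:108934417-108934446 on the plus strand for Eif3f, chr16:23107758-23107787 plus for Eif4a2, chr7:28981785-28981814 minus for Eif3k, chr7:126566382-126566411 minus for Eif3c and chr5:140419328-140419357 plus for Eif3b. All 5 windows lie in the first exon.

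Starts were examined for the 47 of 61 members that have an entry in the RefSeq table of gene starts for this work. A run of at least 5 bases at the first base (C followed by at least 4 bases that are C or T, on the transcript strand) was found in 4 of the 47 and in 2.49% of 10623 protein-coding genes. The 10623 genes were not limited to those with an entry in that table, so the sets are unlike in this. Of the 7 textbook genes with an entry, 3 had it. In the rule's 5′ TOP group 1 of 13 genes with an entry had it, and among the other members 3 of 34. A run of at least 8 bases anywhere in the first 30 was found in 9 of 47 members and 7.23% of those protein-coding genes. Annotated starts need not be the starts used in these cells, and the libraries do not map 5′ ends. Of the genes shown, the log2 fold change was 0.25 for Eif3c (run of 14 bases), −0.40 for Eif3k (10) and −0.29 for Eif3f (9). It was −0.71 for Eif4a2 (6) and 0.19 for Eif3b (2). A relation between run and fold change was not tested.

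Counts were compared within each library as well. The log2 ratio of summed counts of the rule's 5′ TOP group to the other members was 1.06 and 1.28 in WT against 1.10 and 1.02 in DKO. The groups overlapped, and the difference of −0.11 was smaller than the pooled SD of 0.12. It was 0.00 without WT 2, −0.22 without WT 1, −0.07 without DKO 2 and 0.03 when Eef1a1 was left out of the group. For the textbook list the same ratio was 1.41 and 1.67 in WT against 1.28 and 1.12 in DKO. Both DKO libraries lay below both WT libraries, with a difference of −0.34, a pooled SD of 0.15, and −0.29 without Eef1a1. Without WT 2 the difference was −0.21 and without DKO 2 it was −0.26.

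The libraries stood in one order for many of these genes. From highest to lowest, the order WT 2, WT 1, DKO 1, DKO 2 held for 7 of the 11 textbook genes and for 13 of all 58 members, against 6.54% of all genes tested and 4.70% of protein-coding genes. No other order was counted, and this one is that of Eef1a1, Eef1d and Eef1g, so the counts describe these genes and are no test. The mean fragment length implied by the deposited effective lengths ran in the reverse order, at 120 bases in WT 2, 124 in WT 1, 133 in DKO 1 and 142 in DKO 2. When effective length was entered as an offset in edgeR, the textbook median was −0.40 and all 11 genes stayed below 0. At TPM + 0.5, which also uses effective length, it was −0.03 with 5 genes above 0, where the median gene lay at 0.13. Relative to the median gene, the textbook median was −0.16 at TPM + 0.5 and −0.29 at TPM + 0.1, beside −0.42 under TMM. The part of fragment length was not tested.

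**Figure D3:**
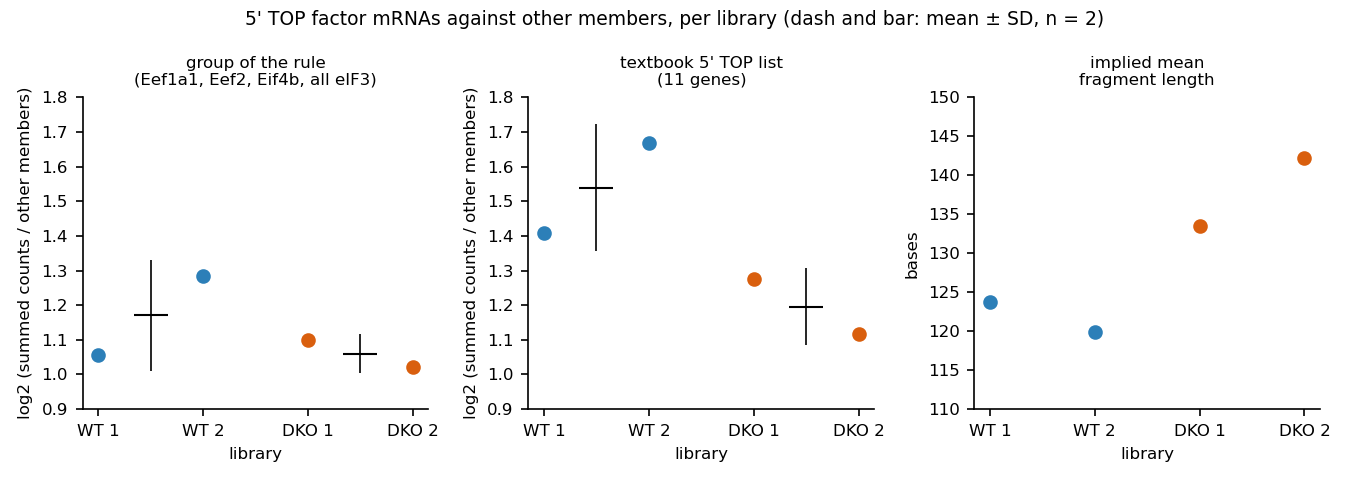
Log2 ratio of summed counts of 5′ TOP members to other members in each library, for the group of the rule (left) and the textbook list (middle), and the implied mean fragment length in bases (right); dashes and bars are mean ± SD of 2 libraries, and the ratio axes start at 0.9. The ratio of the textbook list is lower in both DKO libraries, that of the rule's group overlaps, and fragment length is longer in both DKO libraries.

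Sequence shared with other genes also moved with the fold changes. Of the 31-base words in the main transcript of a member, a median of 33.5% also occurred in another gene for the textbook list and 1.04% for the members not on it. The share was 72.3% for Eef1a1, 68.1% for Eef1g and 53.7% for Eif3m, mostly in processed pseudogenes, so their counts are uncertain. Over the 58 tested genes, which share the same libraries and are not independent replicates, Spearman's rho between this share and the fold change was −0.38, beside 0.22 for transcript length and 0.11 for GC content. Eif3f and Eif3k share under 1% of their words and lay at −0.29 and −0.40, and Eif3a shares 0% and lay at −0.06.

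The 14 eIF3 genes lay on both sides of 0. eIF3 is the largest initiation factor, built on a core of subunits with PCI or MPN domains (a, c, e, f, h, k, l and m), to which b, g and i attach as a module and d and j more loosely. Grouped in this way, after the values had been seen, 7 of the 8 core subunits lay below 0 (median −0.31) and in 5 of the 8 each DKO library was lower than either WT library, against 18.8% of all genes tested. Of the 6 other genes 4 lay above 0 (median 0.03) and all 6 overlapped. With total counts 3 of the 8 core subunits lay below 0 and with the RNA polymerase III reference 0 did. On TPM, 5 or 6 of 8 lay below the median gene, depending on the pseudocount. Their median was −0.10 without WT 2 and −0.19 without DKO 2.

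Among the core subunits, Eif3h was at 156 and 215 CPM in WT and 150.3 and 124 CPM in DKO (log2 fold change −0.44, SE 0.18, adjusted p = 0.603). Eif3m was at 57.6 and 69.2 against 52.5 and 44.8 CPM (−0.38, SE 0.15, adjusted p = 0.573), and Eif3e at 133 and 167 against 123 and 115 CPM (−0.33, SE 0.15, adjusted p = 0.641). Both DKO libraries were the lower ones for these 3 genes, with the widest gap between WT 2 and DKO 2. Without WT 2 the log2 fold change of Eif3h was −0.18, that of Eif3m −0.23 and that of Eif3e −0.14. Eif3f was at 130.2 and 162 against 127 and 112 CPM, and Eif3l at 44.6 and 49.4 against 44.2 and 39.7 CPM. Eif3k, at 61.1 and 87.7 against 63.6 and 49.2 CPM, overlapped between the groups because DKO 1 lay above WT 1. The largest scaffold subunit did not share this pattern, since Eif3a was at 274 and 275 CPM in WT and 283 and 245 CPM in DKO.

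The second large core subunit, Eif3c, stood at 138 and 179 CPM in WT and 202 and 174 CPM in DKO (log2 fold change 0.25, SE 0.17, adjusted p = 0.772). Eif3b, the scaffold of the attached module, was at 62.0 and 72.7 against 83.2 and 70.9 CPM (0.19, SE 0.15, adjusted p = 0.809). In both genes WT 1 was the lowest library and DKO 1 the highest. Eif3g, an RNA-binding subunit, was at 45.2 and 59.8 against 58.4 and 50.1 CPM, and Eif3i at 41.2 and 47.9 against 44.1 and 36.8 CPM. Eif3d, a subunit that can bind the cap, was at 59.2 and 76.0 against 71.0 and 68.9 CPM. The groups overlapped for all of these.

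The paralogues of the loosely bound j subunit, Eif3j1 and Eif3j2, cannot be separated well, since 93.9% of the words of Eif3j2 occur in Eif3j1. Eif3j1 was at 15.2 and 8.46 against 12.7 and 11.4 CPM and Eif3j2 at 24.9 and 26.0 against 27.5 and 23.2 CPM. As a sum, the eIF3 genes held 13.98% and 13.2% of the counts on members in WT and 15.2% and 15.6% in DKO. Their log2 ratio to all other members, of which Eef1a1 is the largest, was −2.62 and −2.72 in WT against −2.48 and −2.43 in DKO, a difference of 0.21 with a pooled SD of 0.06. With Eef1a1 left out of the other members the difference was 0.12, with a pooled SD of 0.0052. An SD from so few libraries is itself imprecise. This is a share of the factor pool and not a higher level, since the summed eIF3 level was 1242 and 1494 CPM in WT and 1342 and 1164 CPM in DKO, with overlap.

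**Figure D4:**
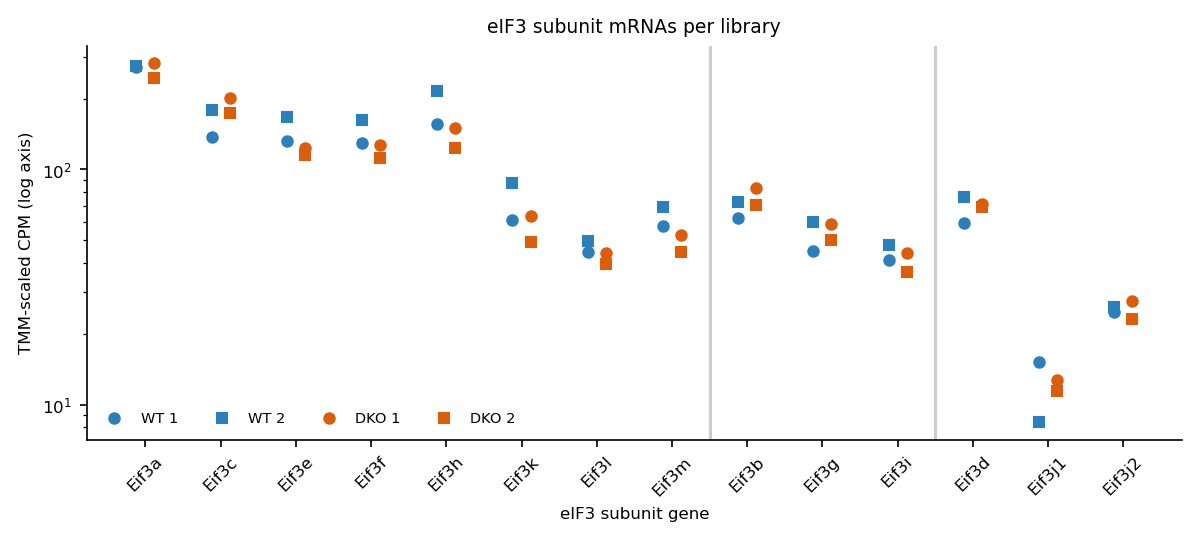
TMM-scaled CPM of the 14 eIF3 genes in each library on a log axis, with the PCI and MPN core on the left, b, g and i in the middle and d and the j paralogues on the right. For Eif3e, Eif3f, Eif3h, Eif3l and Eif3m both DKO points lie below both WT points, and for Eif3c and Eif3b DKO 1 is the highest.

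The eIF4 group contained the member with the smallest p. Eif4a2 encodes eIF4A2, a DEAD-box RNA helicase and a known partner of CCR4-NOT. It stood at 218.4 and 218.3 CPM in WT and 145 and 122 CPM in DKO, and the WT libraries differed from each other far less than from either DKO library. The log2 fold change was −0.71 (SE 0.14, unadjusted p = 0.00105, adjusted p = 0.161 by edgeR's quasi-likelihood test). It was called lower by DESeq2 (adjusted p = 0.00271), with protein-coding genes alone (adjusted p = 0.0409, 0.15% of genes called lower) and with no filter on low counts (adjusted p = 0.00445, 0.98% called lower). It was not called under the other scalings, units, offsets or left-out libraries, where adjusted p was 0.0576 or more.

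The lower Eif4a2 level lay in transcripts that retain introns with snoRNA genes. The gene (chromosome 16, 23107444 to 23114136, plus strand) holds 5 annotated snoRNA genes, and 7 of its 24 annotated transcripts carry a whole snoRNA gene in an exon. Transcripts annotated as retained intron held 64.2% and 65.2% of Eif4a2 counts in WT and 49.5% and 48.7% in DKO, while protein-coding ones held 26.5% and 23.8% against 34.9% and 36.5%. The 7 transcripts with a snoRNA stood at 135.5 and 142.0 CPM in WT and 70.7 and 56.0 CPM in DKO. The 17 without stood at 82.9 and 76.4 against 74.7 and 66.1 CPM, so the larger part of the difference lay in the former.

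Summed without snoRNA-bearing transcripts, an alternative added after the data were seen, Eif4a2 had a log2 fold change of −0.18 (adjusted p = 0.804 by edgeR's quasi-likelihood test). From protein-coding transcripts alone it was −0.27 (adjusted p = 0.620). One retained-intron transcript, Eif4a2-220, held most of the difference, at 66.1 and 71.4 CPM in WT and 4.69 and 12.1 CPM in DKO. Its exon holds the snoRNA gene Gm26447 (chromosome 16, 23111301 to 23111429, plus strand), and so does that of Eif4a2-206, which stood at 38.3 and 44.5 against 49.3 and 24.2 CPM. Gm26447 itself was at 61.6 and 131 CPM in WT and 44.5 and 31.3 CPM in DKO. Reads from the snoRNA fit all 3 of these, and how the estimates divide them was not tested.

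**Figure D5:**
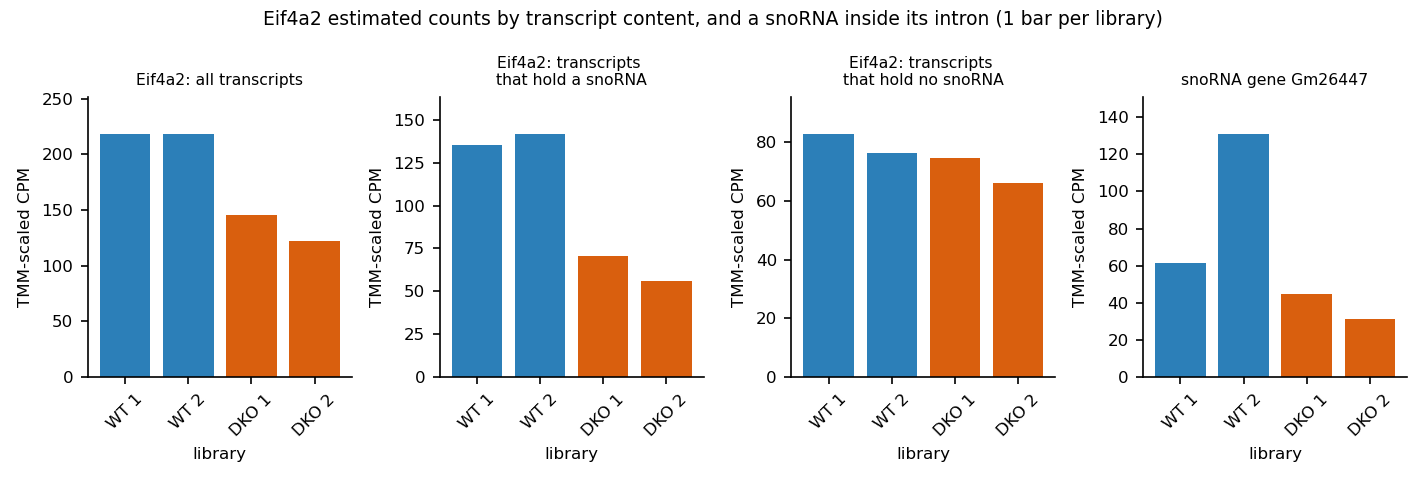
TMM-scaled CPM in each library for all 24 Eif4a2 transcripts, the 7 that hold a whole snoRNA gene, the 17 that hold none, and the snoRNA gene Gm26447, with separate axes that start at 0. The DKO bars are lower by far for the transcripts with a snoRNA and lower by little for those without.

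The other helicase paralogue, Eif4a1, was at 115 and 122 CPM in WT and 127 and 96.8 CPM in DKO, and 67.6% of its words occur in other genes. The log2 ratio of Eif4a1 to Eif4a2 was −0.92 and −0.84 in WT against −0.19 and −0.34 in DKO. The difference was 0.61 with a pooled SD of 0.08, so it exceeded the spread between libraries. It rested on the transcripts that hold a snoRNA. Without them the log2 ratio was 0.19 and 0.52 in WT against 0.65 and 0.34 in DKO, and the difference of 0.14 was smaller than the pooled SD of 0.23. Eif4b, a cofactor of the helicase and a 5′ TOP mRNA in both lists, stood at 207 and 245 CPM in WT and 196 and 154 CPM in DKO (log2 fold change −0.37, SE 0.17, adjusted p = 0.633), without overlap.

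The scaffold and cap-binding members of eIF4 lay on both sides of 0. Eif4g1, the main scaffold of the cap complex, was at 176 and 193 CPM in WT and 218 and 198 CPM in DKO (log2 fold change 0.17, SE 0.14), its paralogue Eif4g3 at 104 and 93.8 against 88.1 and 98.9 CPM, and Eif4g2 at 425 and 467 against 419 and 393 CPM (−0.13, SE 0.15). Both DKO libraries were higher for Eif4g1 and lower for Eif4g2, and the groups overlapped for Eif4g3. The cap-binding protein gene Eif4e was at 25.1 and 23.4 against 25.6 and 22.8 CPM, a log2 fold change of 0.00 (SE 0.15). Its paralogues Eif4e2, at 41.9 and 45.5 against 45.7 and 48.8 CPM, and Eif4e3, at 6.93 and 5.95 against 8.40 and 7.83 CPM (log2 fold change 0.33, SE 0.23), both had the DKO libraries above the WT libraries. The log2 ratio of Eif4e3 to Eif4e was −1.86 and −1.97 in WT against −1.61 and −1.54 in DKO.

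Among the factors of start codon selection, Eif1 and its paralogue lay on opposite sides. Eif1, which keeps the scanning ribosome from stopping at a wrong codon, stood at 185 and 229 CPM in WT and 168 and 147 CPM in DKO (log2 fold change −0.40, SE 0.16, adjusted p = 0.573). Eif1b, which encodes a nearly identical protein, was at 8.01 and 10.3 against 13.4 and 11.5 CPM (0.44, SE 0.21, adjusted p = 0.648). Neither was called, and neither overlapped between groups. Their log2 ratio within a library was −4.53 and −4.47 in WT against −3.64 and −3.68 in DKO. The difference was 0.84 with a pooled SD of 0.03, the largest relative to its SD of the 9 paralogue ratios computed. At the sequence level 37.2% of the words of Eif1 occur in other genes and 0.20% of those of Eif1b do.

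The eIF2 subunits and their partners lay on both sides of the median gene. Eif2s3x, the X-linked gene of the gamma subunit, was at 51.2 and 64.3 CPM in WT and 48.3 and 44.3 CPM in DKO (log2 fold change −0.32, SE 0.15, adjusted p = 0.648), without overlap. Its Y-linked counterpart Eif2s3y was at 20.6 and 16.8 against 17.0 and 20.9 CPM. The other eIF2 subunit genes overlapped between groups, with a log2 fold change of 0.07 for Eif2s1 of the alpha subunit and −0.18 (SE 0.17) for Eif2s2 of the beta subunit. Eif2a, an alternative factor for initiator tRNA, was also picked with its values known and stood at 17.2 and 9.98 CPM in WT and at 11.1 and 9.84 CPM in DKO (−0.38, SE 0.26, adjusted p = 0.769), with WT 1 high and the other 3 libraries close together. Eif5, which promotes GTP hydrolysis by eIF2, was at 107 and 101 against 90.1 and 97.6 CPM. Eif5b, the GTPase of subunit joining, was at 96.8 and 96.2 against 104 and 92.8 CPM, and 63.9% to 67.4% of its counts lay on retained-intron transcripts in every library. Eif1a was at 13.9 and 13.6 against 13.2 and 12.5 CPM and Eif1ax at 15.8 and 21.6 against 20.8 and 16.4 CPM. Of the 13 genes of this group, 4 had both DKO libraries below and 2 above the WT libraries, against 18.8% and 19.9% of all genes tested, and by sign 7 lay below 0 and 6 above.

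eIF2B, the exchange factor that the integrated stress response acts on, had 5 subunit genes at 4.16 to 22.3 CPM. Eif2b5, the catalytic epsilon subunit, was at 22.0 and 22.3 CPM in WT and 21.6 and 21.0 CPM in DKO. Eif2b2, the beta subunit, was at 12.8 and 11.2 against 12.9 and 12.7 CPM. Eif2b4, the delta subunit, was at 6.30 and 11.4 against 11.9 and 12.6 CPM (log2 fold change 0.48, SE 0.28, adjusted p = 0.707), with WT 1 low and the other 3 libraries close together.

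Eif5a, whose product carries the hypusine modification and relieves ribosome stalling, stood at 116 and 134 CPM in WT and 120.1 and 105 CPM in DKO. Eif5a2 was at 2.67 and 1.99 against 3.19 and 2.18 CPM. Eif6, which keeps ribosomal subunits apart, was at 13.1 and 13.4 against 16.4 and 13.4 CPM. The groups overlapped for all 3 genes.

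The snoRNA genes inside member genes had lower fold changes than their hosts. Box C/D and box H/ACA snoRNAs guide modification of ribosomal RNA and are released from introns during splicing of the host. There were 17 annotated snoRNA genes on the same strand within 8 members, of which 12 within 7 hosts were tested. All 12 lay below 0, with a median log2 fold change of −1.48, and 10 of 12 had both DKO libraries below both WT libraries, against 18.8% of all genes tested and 141 of 196 snoRNA genes tested. Their 7 hosts had a median of −0.15. By edgeR's quasi-likelihood test 0 of the 12 were called. At an unadjusted p under 0.05, 6 were lower, against 70 of 196 snoRNA genes tested and 4.35% of all genes. DESeq2 called 2 lower, against 1.03% of all genes. The 196 snoRNA genes tested had a median of −1.64, with 193 below 0. Those inside translation factor genes therefore lay close to snoRNAs in general.

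Gm22988 in Eif4a1 had the smallest p of these, at 30.8 and 33.4 CPM in WT and 15.0 and 8.38 CPM in DKO (log2 fold change −1.46, SE 0.26, adjusted p = 0.139). Snord66 in Eif4g1, a box C/D snoRNA, was at 6.42 and 13.4 against 4.61 and 2.09 CPM, while its host Eif4g1 lay at 0.17. Gm23262 in Eif4g2 was at 81.4 and 198 against 62.5 and 29.7 CPM. In both of the latter WT 2 was the highest library and DKO 2 the lowest. Snord66, Gm22988 and Gm23262 were chosen after their values were seen.

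Other genes of translation were read from lists drawn up with earlier results known, and 0 members of any list were called. The 76 tested cytosolic ribosomal protein genes, the classical 5′ TOP mRNAs, had a median log2 fold change of −0.52, with 76 of 76 below 0 under TMM and 56 of 76 lower in each DKO library than in either WT library, against 18.8% of all genes tested. Of 12 other 5′ TOP mRNAs 11 lay below 0 (median −0.41). Fau, a ribosomal protein fusion gene, was at 598 and 695 CPM in WT and 439.8 and 407 CPM in DKO (−0.61, adjusted p = 0.300), and Gas5, a snoRNA host, at 80.8 and 101 against 64.9 and 58.0 CPM (−0.56, adjusted p = 0.300). Tpt1, the most abundant of that list, was at 1368 and 2060 against 1457 and 1200 CPM, with overlap.

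The regulators of the factors lay on both sides. Of 11 tested genes for eIF2 kinases, 4E-binding proteins and their partners 6 lay below 0 and 5 above. Ppp1r15a, the stress-induced subunit of an eIF2 phosphatase, was at 510.7 and 533 CPM in WT and 371 and 283 CPM in DKO (log2 fold change −0.67, SE 0.18, adjusted p = 0.282). Pdcd4, an inhibitor of eIF4A, was at 178 and 199 against 227 and 252 CPM (0.35, SE 0.14, adjusted p = 0.603). Neither of these overlapped between groups. Pabpc1, the main cytoplasmic poly(A)-binding protein, was at 844 and 894 against 806 and 721 CPM (−0.19, adjusted p = 0.845), and Paip1, which binds it, at 29.0 and 23.8 against 18.8 and 19.2 CPM (−0.48, adjusted p = 0.451). Among termination and rescue factors, Pelo, which splits stalled ribosomes, was at 2.67 and 2.78 against 6.39 and 4.04 CPM (0.93, SE 0.35, adjusted p = 0.528). The median was 0.05 over 22 cytosolic aminoacyl-tRNA synthetase genes and 0.06 over 7 mitochondrial factors.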

How the data were processed

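RNA of 4 libraries was measured, with groups and replicate numbers taken from the sample titles. Abundances were estimated by the authors with kallisto, and mm10 and GRCm38 are named as builds, per the submitters' processing notes. The version, strand setting and annotation were not given in the sources used here. Deposited files hold estimated counts per transcript, not scaled, per the file headers. The deposited TPM divide counts by effective length and are scaled within a library, per the file headers. The deposited lengths and effective lengths are in bases. Estimated counts divide reads between similar transcripts, and without a stated strand setting overlapping antisense genes cannot be told apart.

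Of 126782 transcripts 125182 (98.7%) were joined to GENCODE M21, and counts were summed to 48858 genes and rounded. R 4.3.3 and edgeR 4.0.16 (filterByExpr, TMM, robust quasi-likelihood fit of the 4 libraries, common biological coefficient of variation 0.220) gave the tests, with Benjamini-Hochberg adjustment and a threshold of 0.05. The code was tested on simulated data. DESeq2 1.42.0, limma 3.58.1 on log2(TPM + 0.5) and log2(TPM + 0.1), other scalings, filters, transcript sets, an effective length offset, a block and left-out libraries were alternatives. A floor of 3 counts corresponds to 0.168 to 0.216 CPM, for counting error only.

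Members and lists were chosen with earlier results of these data known. Values in every library are given for Eef1a1, Eef2, Eif4b, the eIF3 genes, the 3 most abundant of each other group, the 10 smallest p-values and paralogue pairs, and in other lists for genes chosen by level and p. The start sequence of 1 member and the level of 1 marker gene are not reported here.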

Additional observations from a re-analysis of the deposited data

How the results depend on the processing

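The 0 members called higher became 2 with the RNA polymerase III reference (Eif2b4 and Eif3c, of which 1 is in the rule's 5′ TOP group). The 0 called lower became 1 with protein-coding genes alone and with DESeq2 (Eif4a2) and 2 with no filter (Eef1g and Eif4a2). Leaving out a library left 0 members called in either direction. With the replicate block 0 members were called, and same-numbered WT 1 and DKO 1 deviated from their group means with r = −0.32 over 12863 genes. The labels speak of pairs of mice without saying that numbers mark them; the crossed pairing called 6 members lower, 2 of them in the 5′ TOP group, and 8 of 12 snoRNA genes, where 2.99% of all genes were called lower. The 0 snoRNA genes called inside members became 2 with total counts (0.513% of all genes called lower), 4 with no filter (0.98%), 2 with DESeq2 (1.03%), 1 with the replicate block (0.7%), and 0 to 4 with a library left out (0.205% to 0.938%). The median difference between 5′ TOP and other members (−0.15) was −0.055 at TPM + 0.5, −0.047 at TPM + 0.1, −0.43 with the textbook list, and −0.21 to −0.08 with a library left out. The members' median relative to all genes (−0.04) ran from −0.137 to 0.074 with a library left out. The ratio of summed counts (−0.11) was −0.34 with the textbook list, 0.028 without Eef1a1, and −0.224 to 0.004 with a library left out. The causes were not tested. For the 45 named members tested, 12 tests passed the threshold under an alternative and not as reported, and 694 kept their side and their direction relative to the median gene. The other 59 changed direction, in 18 members that lay within 0.21 of the median gene as reported, none of them called. These log2 values relative to the median gene follow. At TPM + 0.5 they were Eif2b5 0.065, Eif2s3y −0.13, Eif3a 0.16, Eif3i 0.11, Eif3j1 −0.011, Eif3l 0.053, Eif4a1 0.023, Eif5 0.0099, Eif5a 0.090 and Eif5a2 −0.087. At TPM + 0.1 they were Eif2b5 0.043, Eif2s3y −0.26, Eif3a 0.054, Eif3i 0.0061, Eif3j1 −0.024, Eif4e −0.075 and Eif5a2 −0.089. With protein-coding genes alone they were Eif1ax −0.021, Eif2s3y −0.0019, Eif3j1 −0.0049, Eif3j2 −0.026 and Eif4e −0.023, and with protein-coding transcripts Eef2kmt 0.12, Eif1ax −0.061, Eif3j1 −0.016, Eif3j2 −0.060 and Eif4e −0.074. With the RNA polymerase III reference they were Eef2kmt 0.017, Eif3j1 −0.044, Eif3j2 −0.0018 and Eif4e −0.0084. Eef2kmt was at 0.0020 with total counts and 0.019 with no filter. Eif3j2 and Eif4e were at −0.0092 and −0.0015 with the replicate block and −0.0074 and −0.0011 with the crossed pairing. With a library left out the ranges were −0.17 to 0.13 for Eef2kmt, −0.24 to 0.25 for Eif1ax, −0.092 to 0.0079 for Eif2b5, −0.10 to 0.17 for Eif2s3y, −0.15 to 0.088 for Eif3a, −0.15 to 0.26 for Eif3d, −0.17 to 0.28 for Eif3g and −0.27 to 0.030 for Eif3i. They were −0.31 to 0.48 for Eif3j1, −0.12 to 0.16 for Eif3j2, −0.28 to 0.14 for Eif4a1, −0.078 to 0.12 for Eif4e, −0.14 to 0.010 for Eif4g3, −0.089 to 0.49 for Eif5a2 and −0.045 to 0.16 for Eif5b. Depth limits Eef1a2, Eef1akmt3 and Eif4e1b, which were too low to test.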
